A study of Mus musculus with 12 samples.

Results

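The cytochrome P450 genes were examined on 12 mouse oligonucleotide arrays, as the genes whose single symbol in the platform's probe annotation was Cyp followed by a family number, a subfamily letter and a gene number. Cyp24a1 and Cyp27b1 were left out by that rule. It found 68 of the 18193 genes that some probe set named alone, and the rule used no measured values. The 68 genes fell into 14 families, of which family 2 held 35 genes, family 4 held 11 and family 3 held 5. The study compared ways of amplifying nanogram amounts of total RNA for arrays, and the arrays analysed here carried kidney RNA or a universal mouse reference RNA. Kidney total RNA, labelled as supplied by Ambion, was used at 10 ng, and the reference, whose supplier the labels spell Strategene, in amounts of 10, 3 and 0.3 ng. Each of these 4 groups had 3 arrays, and every title carried the unexplained code pRS. The strain, age and sex behind the kidney RNA were not given, and universal reference RNA is a commercial pool made from cell lines, so that it stands for no single tissue. Nothing in the labels tells if the replicates were separate animals, RNA preparations or amplifications. The p-values here therefore reflect array-to-array spread alone, and that spread may be technical.

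Cytochrome P450 enzymes are haem proteins that insert oxygen into drugs, fatty acids, sterols, steroids and retinoids. They receive electrons from a reductase in the endoplasmic reticulum or from ferredoxin in mitochondria, and the gene families differ in substrate. The kidney is known for P450 enzymes that hydroxylate or epoxidise arachidonic acid, while the widest range of drug-metabolising forms is a property of liver, and the steroid-forming enzymes belong mainly to adrenal and gonads.

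Signals were the authors' scaled linear intensities, with a trimmed mean of 500 on every array. A signal was taken as above background when it exceeded 33.65, the 95th percentile of the 27 Bacillus control probe sets. The array medians were 56.6 to 59.6 in kidney, 67.9 to 71.2 with 10 ng of reference, 70.1 to 78.3 with 3 ng and 47.5 to 53.2 with 0.3 ng. Replicate arrays of kidney correlated at 0.955 to 0.957 over log2 values, those of the reference at 10 ng at 0.963 to 0.965, and those at 0.3 ng at 0.827 to 0.863. Kidney identity was checked with 9 tubule markers, among them Umod and Kap, and 9 of 9 were higher in kidney, with a summed signal of 56297 to 57967 on the kidney arrays against 498 to 604 on the reference arrays at 10 ng. Changes below are differences of log2(signal + 3.9), with the standard error (SE) of the fit, and were called at an adjusted p under 0.05 in limma, with Benjamini-Hochberg adjustment over the 27022 probe sets tested. The added 3.9 understates differences of low signals. In these bulk samples, fewer cells of a type and less RNA per cell cannot be told apart.

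The DNA just upstream of 6 members, chosen by hand among those called, is shown first. They are 4 genes that were far higher in kidney (Cyp2e1, Cyp2d26, Cyp2j5 and Cyp4b1) and 2 that were lower (Cyp1b1 and Cyp26a1). The lower call of Cyp1b1 was not stable and Cyp26a1 lay near background, as given below. Each sequence is the 250 bases before the gene's annotated start, 5′ to 3′ on the gene's own strand, from RefSeq on the GRCm38.p6 build. Capitals mark matches, on either strand, to TATAAA (the core of a TATA box), GGGCGG (a GC box), GCGTG (the core bound by the aryl hydrocarbon receptor) and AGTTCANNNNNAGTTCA (a direct repeat of the kind bound by retinoic acid receptors).
Cyp2e1, chr7:140763569-140763818, plus strand: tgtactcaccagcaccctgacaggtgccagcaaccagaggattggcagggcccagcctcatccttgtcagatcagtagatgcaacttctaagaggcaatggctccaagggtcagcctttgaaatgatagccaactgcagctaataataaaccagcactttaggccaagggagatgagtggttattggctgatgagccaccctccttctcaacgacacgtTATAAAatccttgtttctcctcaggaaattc
Cyp2d26, chr15:82794246-82794495, minus strand: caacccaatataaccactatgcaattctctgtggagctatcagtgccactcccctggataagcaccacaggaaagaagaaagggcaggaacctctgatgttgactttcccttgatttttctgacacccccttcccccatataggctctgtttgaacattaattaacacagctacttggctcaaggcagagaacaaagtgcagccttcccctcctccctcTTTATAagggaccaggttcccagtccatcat
Cyp2j5, chr4:96664120-96664369, minus strand: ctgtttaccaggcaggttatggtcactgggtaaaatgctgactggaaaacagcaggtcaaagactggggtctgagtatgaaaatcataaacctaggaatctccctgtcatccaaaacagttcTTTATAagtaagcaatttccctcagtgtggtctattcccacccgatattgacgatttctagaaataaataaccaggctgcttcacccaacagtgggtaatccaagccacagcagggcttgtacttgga
Cyp4b1, chr4:115647722-115647971, minus strand: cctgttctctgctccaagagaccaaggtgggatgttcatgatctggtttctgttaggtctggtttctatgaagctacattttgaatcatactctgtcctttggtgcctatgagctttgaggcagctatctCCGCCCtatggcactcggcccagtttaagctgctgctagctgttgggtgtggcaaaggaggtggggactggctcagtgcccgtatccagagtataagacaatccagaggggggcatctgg
Cyp1b1, chr17:79715062-79715311, minus strand: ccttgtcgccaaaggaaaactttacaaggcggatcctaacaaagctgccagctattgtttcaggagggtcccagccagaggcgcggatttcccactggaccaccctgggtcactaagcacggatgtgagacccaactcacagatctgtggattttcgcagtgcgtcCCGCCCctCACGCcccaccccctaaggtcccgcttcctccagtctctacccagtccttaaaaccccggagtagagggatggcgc
Cyp26a1, chr19:37697558-37697807, plus strand: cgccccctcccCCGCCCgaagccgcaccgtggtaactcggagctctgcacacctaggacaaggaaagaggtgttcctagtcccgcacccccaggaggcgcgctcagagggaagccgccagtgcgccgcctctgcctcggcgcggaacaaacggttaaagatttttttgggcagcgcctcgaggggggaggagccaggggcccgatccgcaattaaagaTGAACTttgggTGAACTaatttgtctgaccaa

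In Cyp2e1 and in Cyp2d26 the TATAAA match lay 31 to 26 bases before the start, and in Cyp2j5 it lay 128 to 123 bases before it. The Cyp4b1 window held a GC box 120 to 115 bases before the start and no TATAAA. The Cyp1b1 window held a GC box at 84 to 79 bases and the aryl hydrocarbon core at 76 to 72 bases before the start, and these did not overlap. In Cyp26a1, whose enzyme degrades retinoic acid, the direct repeat lay 32 to 16 bases before the start, and a GC box at 239 to 234 bases. RefSeq windows were at hand for 50 of the 68 members, and 5 of the 50 had more than 1 window. TATAAA occurred in 19 of the 50 members and in 12.4% of all 32851 windows of this length, GGGCGG in 15 members and 32.7% of windows, and GCGTG in 12 members and 28.2% of windows. The direct repeat occurred in 1 member and in 7 windows, or 0.0213%. Among the 12 members with a window that were higher in kidney, 5 held TATAAA, 6 GGGCGG and 3 GCGTG. Of the 38 other members with a window, 14 held TATAAA, 9 GGGCGG and 9 GCGTG. A member was counted if any of its windows matched, whereas the percentages are of single windows. A match to these letters is a description of the window and was not tested as a binding site.

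Of the 68 members, 29 passed the filter on low signal and 39 did not. The filter asked for a group mean of log2 values above that of a signal of 65.4 in at least 1 group. A group of uneven arrays could thus fail it with an arithmetic mean above 65.4. Kidney had 28 members above background on all 3 arrays, against 13, 11 and 8 with 10, 3 and 0.3 ng of reference. Between 34 and 37 members were above background on a single kidney array and between 21 and 26 on a single reference array at 10 ng. The summed signal of the 68 members was 62391 to 62740 on the kidney arrays and 10026 to 12463 on the reference arrays at 10 ng. At the other end, 36 members were never above background on all 3 arrays of any group. A member that passed the filter through kidney alone had to differ there, so the counts that follow describe the 29 tested genes and not the family as a whole.

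At 10 ng of RNA, 19 of the 29 tested members were higher in kidney than in the reference, 5 were lower and 5 did not pass the test. Of the 19, all but Cyp4v3 passed the filter through kidney alone, so the filter itself set their direction. Among the 5 lower members, Cyp2c55, Cyp26a1 and Cyp46a1 passed it through the reference alone. The counts and the median of the members are therefore descriptions, and the values over all genes beside them are no test. Over all 12820 tested genes, 27.1% were called higher and 35.6% lower, 62.7% in all. The median difference of the 29 members was 3.47 on the log2 scale, or 2.94 with signals under background raised to it, and the median over all tested genes was -0.19. The 3 kidney arrays all lay above the 3 reference arrays in 20 members and all below in 5. Calls depended in part on scaling: with arrays centred on their median the split was 20 higher and 2 lower, and with quantile normalization 20 and 3. These scalings moved the median of all probe sets from -0.34 to -0.09 and -0.22. The lower count was 3 without kidney array 1 or reference array 2, and 2 without kidney array 3 or reference array 1 or 3. The reference was often near or below background: of the 19 higher members, 8 had every reference array below it, 8 had some and 3 had none. For the 8, the size is given as a lower bound, the mean kidney signal over the background of 33.65.

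**Figure D1:**
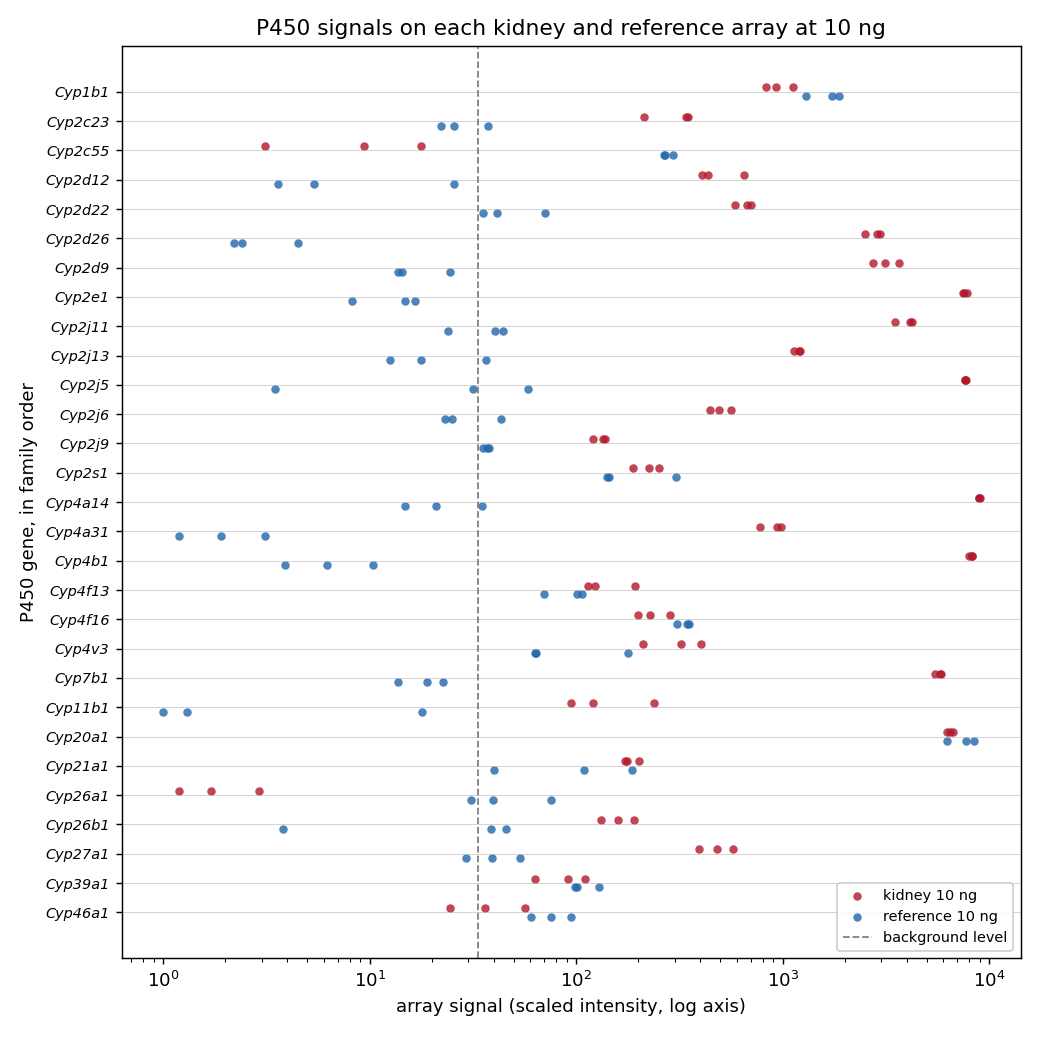
Signals of the 29 tested P450 genes on each of the 3 kidney and 3 reference arrays at 10 ng, on a log axis, with the background of 33.65 as a dashed line. Most genes that were higher in kidney sat near or below the background in the reference, whereas Cyp20a1 lay between 6241 and 8448 in both RNAs.

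Among the drug- and xenobiotic-metabolising families, Cyp2e1, the enzyme that oxidises ethanol and other small solvents, stood far higher in kidney. Its kidney signals were 7480, 7832.9 and 7530.9, against 8.2, 16.6 and 14.9 in the reference. All reference arrays were below background, the kidney level was at least 226-fold higher, and the fitted difference was 8.83 ± 0.22 (SE; n = 3 and 3, limma adjusted p = 7e-06). Its promoter window, like that of Cyp2d26, held a TATAAA match close to the start.

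The Cyp2d subfamily, known for the oxidation of many drugs, had 8 members, of which 4 were tested and all 4 were higher in kidney, with a median difference of 6.26 (4.95 at the background bound). The 4 passed the filter through kidney alone, so their shared direction was set by the filter. Cyp2d26 gave 2870.8, 2495.9 and 2949.9 in kidney and 2.4, 2.2 and 4.5 in the reference, at least 82.4-fold higher, with a difference of 8.66 ± 0.18 (limma adjusted p = 4.21e-06). Cyp2d9 gave 3142.8, 2750.8 and 3673.4 against 14.4, 24.5 and 13.7, at least 94.8-fold higher (7.24 ± 0.24, limma adjusted p = 1.53e-05). No reference array reached background for either gene. Cyp2d12 was also higher, at 436.7, 646.8 and 404.8 against 5.4, 3.6 and 25.5, which was at least 14.7-fold. Cyp2d22 differed from these in that the reference carried signal too: 705.8, 584.8 and 671.3 in kidney against 41.3, 70.8 and 35.5, a difference of 3.68 ± 0.27 (limma adjusted p = 0.000164). The other 4 members, Cyp2d10, Cyp2d13, Cyp2d34 and Cyp2d40, had kidney means of 5.67 to 46.8 and were not tested. In RefSeq's GRCm38.p6 annotation 7 of the 8 genes lie close together on chromosome 15, in the order Cyp2d22, Cyp2d10, Cyp2d9, Cyp2d12, Cyp2d34, Cyp2d40, Cyp2d26, with at most 1 other protein-coding gene between neighbours. Called and untested members were interspersed along it. Whether a probe set of this or another cluster also reads a near-identical neighbour was not tested.

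The Cyp2c subfamily, which includes drug-metabolising enzymes and arachidonic acid epoxygenases, had 11 members and 2 were tested, in opposite directions. Cyp2c55 was higher in the reference, at 265, 270 and 296 against 17.8, 3.1 and 9.4 in kidney, with every kidney array below background. The kidney level was at least 8.23-fold lower (-4.47 ± 0.41, limma adjusted p = 0.000375), and Cyp2c55 was the only member lower in kidney in all 3 comparisons and under every alternative processing run. Cyp2c23, an epoxygenase of arachidonic acid, was higher in kidney, at 349.2, 341.2 and 212.5 against 22.2, 37.5 and 25.5 (3.23 ± 0.28, limma adjusted p = 0.00029). Its probe set carries the suffix that the array maker gives to probes shared by several transcripts, as do those of Cyp4v3 and Cyp7b1. The other 9 Cyp2c members had kidney means of 4.57 to 31.9.

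The remaining drug-metabolising members gave little signal. Cyp1b1, an extrahepatic enzyme that oxidises oestrogens and polycyclic hydrocarbons, was the exception. It gave 1120.9, 831.2 and 933.7 in kidney and 1876.2, 1298.1 and 1729.8 in the reference, so that the kidney arrays all lay lower (-0.76 ± 0.20, limma adjusted p = 0.0204). That call was lost in 8 of 16 alternatives, among them those without kidney array 2 or 3 or reference array 1 or 3 (adjusted p from 0.0552 to 0.0638). The other tested probe sets of Cyp1b1 differed by -0.06 and -0.23 and were not called. The dioxin-inducible Cyp1a1 had the highest kidney mean of the untested members, 74.3, against 18.6 in the reference at 10 ng, and its relative Cyp1a2 had 16.5 and 8.10. All 5 members of family 3, the major steroid- and drug-oxidising family of liver, were untested, and Cyp3a13 had the highest kidney mean among them, 68.9 ± 33.8 (SD, n = 3), against 54.1 ± 21.2 in the reference. The 4 Cyp2b genes, of a subfamily known for induction by phenobarbital in liver, had kidney means of 9.50 to 30.2. The lung and nasal forms Cyp2f2 and Cyp2g1 had 22.5 and 49.8. Cyp2a12 and the vitamin D hydroxylase Cyp2r1 had 13.4 and 3.47. Of 6 hepatocyte markers with a probe set, 3 were tested and were higher in kidney. The sum of all 6 was 626 to 952 in kidney and 105 to 155 in the reference at 10 ng. In both, Tat and Fgb were below background, and Ahsg, also untested, had means of 44.4 and 29.0 with overlapping arrays. The part of such cells in these results was not tested.

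All 5 members of the Cyp2j subfamily were tested and all 5 were higher in kidney, with a median difference of 5.60 (4.94 at the background bound). All 5 passed the filter through kidney alone, so their shared direction was set by the filter. Cyp2j enzymes epoxidise arachidonic acid, and Cyp2j5 is the form known from the renal proximal tubule. Cyp2j5 gave 7648.1, 7605.8 and 7758.2 in kidney and 58.6, 31.7 and 3.5 in the reference, a difference of 8.24 ± 0.77 (7.43 at the bound, limma adjusted p = 0.000411). The kidney arrays of Cyp2j5 were close together while the reference arrays ranged across the background. A second probe set of Cyp2j5, with every reference array below background, was at least 294-fold higher in kidney.

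Cyp2j11 followed, at 4212.1, 4141.5 and 3506.9 against 24.1, 44.1 and 40.3 (6.66 ± 0.24, limma adjusted p = 1.98e-05). Cyp2j13 gave 1136.7, 1195.6 and 1218.3 against 36.8, 17.7 and 12.6 (5.60 ± 0.34, limma adjusted p = 9.18e-05). Cyp2j6, an enzyme found in many tissues, gave 494.2, 442.7 and 561.2 against 25.1, 43.4 and 23.2 (3.91 ± 0.25, limma adjusted p = 0.000108). In each of these genes the groups were well apart and at least 1 reference array was below background. Cyp2j9 showed the smallest difference of the subfamily, with 120.3, 137.5 and 134.3 against 37.9, 35.6 and 37.2, all above background (1.72 ± 0.12, limma adjusted p = 0.00015). The 5 genes lie on chromosome 4 in the order Cyp2j13, Cyp2j11, Cyp2j6, Cyp2j9, Cyp2j5, with at most 1 other protein-coding gene between neighbours.

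**Figure D2:**
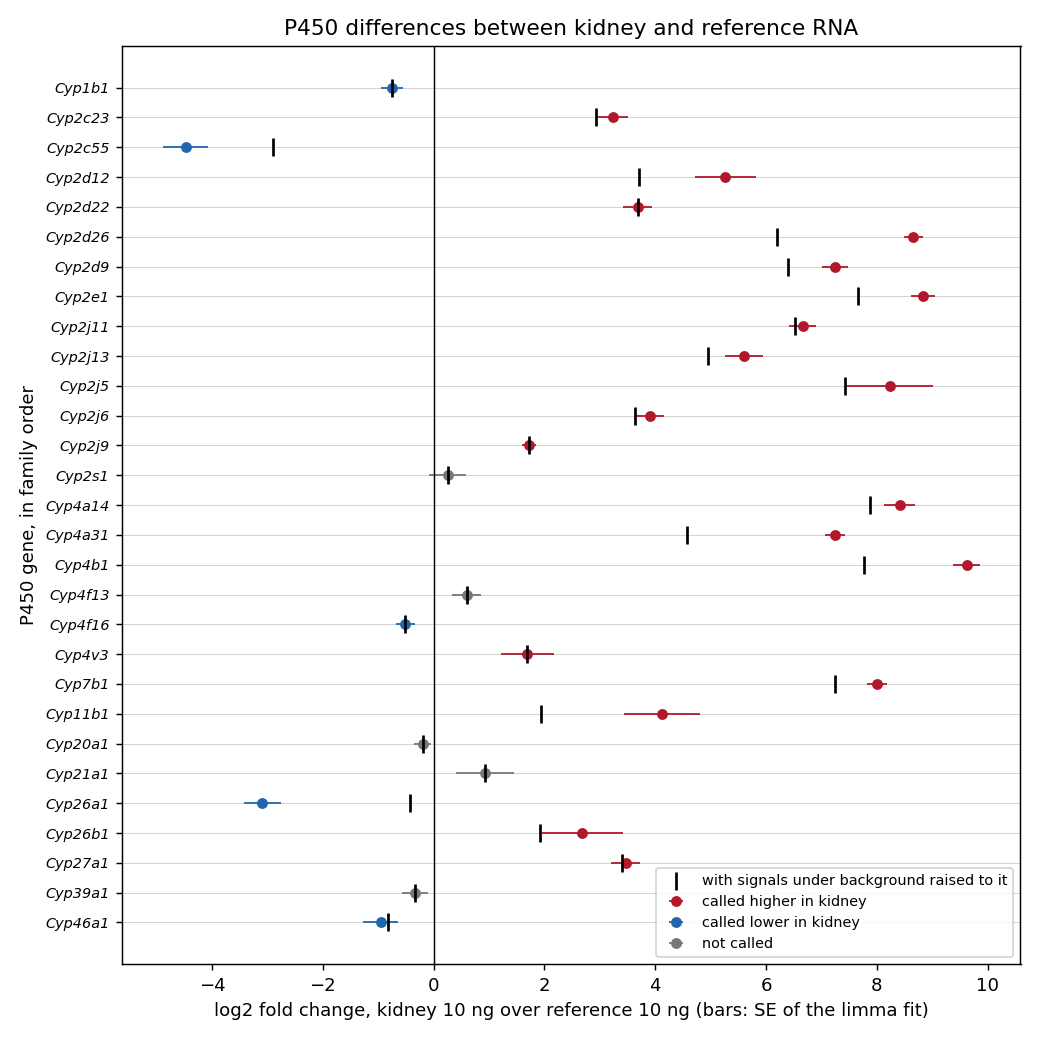
Difference in log2(signal + 3.9) between kidney and reference at 10 ng for the 29 tested P450 genes, with bars of 1 SE and a black tick for the value with signals under background raised to it. Fitted values ran from 9.62 for Cyp4b1 to -4.47 for Cyp2c55, and the ticks shorten the differences of genes whose reference signal was below background.

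Family 4 enzymes hydroxylate fatty acids near the end of the chain, and the family held 11 members, of which 6 were tested, 4 were higher in kidney and 1 was lower. Cyp4b1, which hydroxylates medium-chain fatty acids and some xenobiotics, was among the members farthest apart. It gave 8025.4, 8245.5 and 8242.2 in kidney and 10.4, 3.9 and 6.2 in the reference, at least 243-fold higher (9.62 ± 0.24, limma adjusted p = 6.54e-06). Cyp4a14, a target of the fatty acid receptor Ppara, gave 8956.4, 8905.9 and 8995.2 against 35.1, 20.9 and 14.9 (8.41 ± 0.28, limma adjusted p = 1.57e-05). For both genes the groups were far apart, with every reference array near or below background. Cyp4a31, of the same subfamily, gave 979.8, 776.5 and 938.9 against 1.2, 3.1 and 1.9, at least 26.7-fold higher (7.25 ± 0.18, limma adjusted p = 6.32e-06), and its second tested probe set was at least 8.82-fold higher. Cyp4a14, Cyp4a31 and Cyp4b1 are near neighbours on chromosome 4, with 1 other protein-coding gene between each pair.

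Cyp4v3, which hydroxylates fatty acids in many tissues, gave 322, 210.2 and 400.6 in kidney and 179, 63.1 and 64 in the reference (1.69 ± 0.47, limma adjusted p = 0.0234). That call held in 10 of 16 alternatives and was lost without kidney array 1 or 3 or reference array 2 or 3 (adjusted p from 0.062 to 0.0771). A second probe set, at 1.35, was not called. Cyp4f16, of the leukotriene-oxidising Cyp4f subfamily, gave 198.3, 285.3 and 229 against 309.4, 353.7 and 346, lower on every kidney array (-0.51 ± 0.17, limma adjusted p = 0.0457). Its call was kept in 4 of 16 alternatives and lost without kidney array 1 or 3 or any 1 reference array (adjusted p from 0.0729 to 0.117). The mean over all its probe sets turned the direction, to 0.12. Cyp4f13 of the same subfamily gave 123.6, 191.9 and 114.4 against 69.7, 101.5 and 106.4. Its kidney arrays were all higher, but the difference of 0.60 ± 0.27 did not pass the test (limma adjusted p = 0.1). The other 4 Cyp4f genes and Cyp4x1 had kidney means of 5.30 to 35.6 and were not tested.

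Among the enzymes of sterol and bile acid metabolism, Cyp7b1, an oxysterol hydroxylase, gave 5447.1, 5783.7 and 5833.8 in kidney and 19, 13.8 and 22.7 in the reference. It was at least 169-fold higher (8.01 ± 0.18, limma adjusted p = 5.49e-06), and its second tested probe set was at least 107-fold higher. Cyp27a1, the mitochondrial sterol hydroxylase, gave 391.5, 481.5 and 576.3 against 39.3, 29.3 and 53.6 (3.47 ± 0.26, limma adjusted p = 0.000177). These were the members of this role that were higher in kidney. The liver enzymes of bile acid synthesis were not tested: Cyp7a1, the rate-limiting enzyme, had a kidney mean of 16.1, and Cyp8b1 had 18.9 ± 11.6 (SD, n = 3) against 9.23 ± 11.8 in the reference.

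Cyp46a1, the brain cholesterol hydroxylase, was low in both RNAs, at 24.4, 56.8 and 36.4 in kidney and 60.6, 94.3 and 75.9 in the reference (-0.96 ± 0.32, limma adjusted p = 0.0439), and the call held in 4 of 14 alternatives. It was lost without kidney array 1 or 3 or any 1 reference array (adjusted p from 0.0564 to 0.127). Cyp39a1, which acts on the product of Cyp46a1, gave 110, 91.1 and 63.5 against 101.4, 99.3 and 128.5. The arrays overlapped and the difference of -0.33 ± 0.23 did not pass the test (limma adjusted p = 0.27).

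The steroid-forming members were low or untested in kidney. Cyp11b1, the enzyme that completes glucocorticoid synthesis in the adrenal cortex, was higher on every kidney array, at 238.6, 120.1 and 94 against 18, 1 and 1.3. The kidney level was at least 4.48-fold higher (limma adjusted p = 0.00347), and the fitted 4.12 ± 0.68 fell to 1.93 with low signals raised to background. Cyp21a1, the steroid hydroxylase that precedes it, gave 176.1, 172.9 and 200.7 against 186.6, 40 and 108.7, with overlapping arrays (0.93 ± 0.53, limma adjusted p = 0.175). Without the first reference array Cyp21a1 was called, at 1.41 (adjusted p = 0.046). Cyp11a1, Cyp11b2 and Cyp17a1, which start steroid synthesis, make aldosterone and make androgen precursors, had kidney means of 57.2, 16.1 and 5.83 and were not tested.

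Adrenal tissue lies next to the kidney, and its markers are given beside these genes. Of 5 adrenal cortex markers with a probe set, 3 were tested, of which Hsd3b1 was higher in kidney and Scarb1 lower. Hsd3b1, a steroid-forming enzyme, had means of 154 in kidney and 7.5 in the reference, Scarb1, a lipoprotein receptor also found in other cells, 241 and 1160, and Star, the cholesterol transporter of steroid synthesis, 114 and 113 without a call. Mc2r and Nr5a1 had kidney means of 25.6 and 25.2 and were not tested. The summed signal of the 5 was 480 to 629 in kidney and 1139 to 1566 in the reference, and most of the sum in the reference was Scarb1. Of 4 adrenal medulla markers, 2 were tested and 1, Dbh, was lower in kidney. Chga, also of the medulla, gave 10.3, 353.9 and 110 on the kidney arrays. The part of adrenal tissue in the Cyp11b1 signal was not tested. The 3 adipocyte markers with a probe set were all higher in kidney, with sums of 486 to 552 against 31.3 to 44.

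The retinoic acid-degrading enzymes went opposite ways. Cyp26b1 gave 132.5, 191.7 and 160.1 in kidney and 45.8, 38.9 and 3.8 in the reference (2.69 ± 0.74, limma adjusted p = 0.0224), or 1.93 with low signals raised to background, and the call held in 13 of 16 alternatives. It was lost without kidney array 2 or 3 (adjusted p from 0.0555 to 0.0619). Cyp26a1 gave 1.7, 1.2 and 2.9 in kidney and 75.8, 31 and 39.5 in the reference. Its fitted difference was -3.09 ± 0.33 (limma adjusted p = 0.000672), but both RNAs lay near background and the kidney level was at least 1.45-fold lower. The call was lost in 1 of 15 alternatives, the fit of all arrays together (adjusted p = 0.0944).

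Cyp20a1, a conserved P450 whose substrate is not established, was high in both RNAs and differed little. It gave 6466.3, 6683 and 6260.6 in kidney and 7745.7, 6240.9 and 8447.9 in the reference (-0.20 ± 0.16, limma adjusted p = 0.308), and its sign turned, to 0.05, when arrays were centred on their median. Of its other probe sets, 1 was lower in kidney by 1.56, at means of 25.3 against 72.0, and 1 differed by 0.10 and was not called. Cyp2s1, an epithelial member of family 2, gave 188.6, 225.1 and 253.1 in kidney and 144.9, 305 and 140.9 in the reference (0.26 ± 0.33, limma adjusted p = 0.531). The reference arrays of Cyp2s1 lay on both sides of the kidney arrays, and without the second of them Cyp2s1 was called higher in kidney (adjusted p = 0.0378). Cyp2u1, a fatty acid hydroxylase, was untested by the probe set that stood for it, whose means were 37.8 in kidney and 18.1 in the reference. A second probe set of Cyp2u1, brighter in kidney, was called higher there, at least 2.08-fold (means 70.2 and 9.07).

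The same kidney arrays were next set against the reference at lower input, so the 3 comparisons share them and are not independent. Against the reference at 3 ng, 19 members were higher in kidney and 3 lower, where 26.4% of all tested genes were called higher and 31.4% lower, 57.8% in all. Against the reference at 0.3 ng, 19 were higher and 1 lower, where 20.9% and 16.7% were called, 37.6% in all. In all 3 comparisons 16 members were called higher: Cyp2d9, Cyp2d12, Cyp2d22, Cyp2d26, Cyp2e1, the 5 Cyp2j genes, Cyp4a14, Cyp4a31, Cyp4b1, Cyp7b1, Cyp11b1 and Cyp27a1. These 16 all passed the filter through kidney alone, which set their direction. Cyp2c23 was higher in kidney at 10 and 3 ng, Cyp4v3 at 10 and 0.3 ng, and Cyp26b1 at 10 ng; Cyp1b1 and Cyp26a1 were lower at 10 and 3 ng. Several of these calls rested on few arrays. Against 3 ng, that of Cyp1b1 was lost in 8 of 16 alternatives, among them those without kidney array 2 or 3 or reference array 1 or 3 (adjusted p up to 0.347). Against 3 ng, Cyp26a1 was lost without reference array 2 and in the joint fit of all arrays (adjusted p up to 0.082), and Cyp11b1 without reference array 2 or 3 and in that fit (up to 0.0803). Against 0.3 ng, Cyp2j9 was called in 7 of 16 alternatives, and not without any 1 kidney array or reference array 3 (up to 0.123). Cyp4v3 was called there in 4 of 16, and not without any 1 kidney array or reference array 2 or 3 (up to 0.135). The call of Cyp11b1 against 0.3 ng was lost without any 1 kidney array or reference array 1 (up to 0.0954), and without that reference array Cyp26a1 was called too, making 2 lower. Cyp4f13 was higher in kidney than in the reference at 3 ng, where its arrays gave 52.9, 51.6 and 56.2 (1.32 ± 0.23, limma adjusted p = 0.00453). Cyp2s1 was called against the reference at 3 ng (0.90 ± 0.22, limma adjusted p = 0.0175) and at 0.3 ng (3.56 ± 0.76, limma adjusted p = 0.0169). The call of Cyp2s1 at 3 ng was lost without kidney array 2 or 3 or reference array 3, and that at 0.3 ng without any 1 of the kidney arrays, with adjusted p up to 0.267 and 0.0631 over all alternatives.

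For Cyp46a1 the direction itself turned with the reference input. It was -0.96 against the reference at 10 ng and called lower, -0.24 and not called at 3 ng (limma adjusted p = 0.725), and 2.23 and called higher at 0.3 ng (limma adjusted p = 0.014), where the kidney level was at least 1.16-fold higher. The last call was lost without kidney array 2 or 3, with adjusted p up to 0.0534. The kidney arrays were the same in all 3. The reference arrays of Cyp46a1 were 60.6, 94.3 and 75.9 at 10 ng, 18.5, 79.6 and 57.6 at 3 ng, and 2.1, 4.1 and 10.2 at 0.3 ng.

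Within the reference, no member was called between 3 and 10 ng, and 0% of all tested genes were, with 3 of the 29 members and 2736 of 27022 probe sets at an unadjusted limma p under 0.05. The largest fitted difference was that of Cyp11b1, 2.34 ± 0.67 higher at 3 ng (limma adjusted p = 0.393), from signals of 62.1, 36.2 and 23.2 against 10 ng arrays all below background. The next were Cyp2j5 at -1.22 ± 0.94 (limma adjusted p = 0.679) and Cyp2d22 at -0.86 ± 0.70 (limma adjusted p = 0.695). Between 0.3 and 10 ng, 1 member was called lower and none higher, against 0.546% and 0.0078% of all tested genes, 0.554% in all, and 5 of 29 members had an unadjusted limma p under 0.05. The member was Cyp46a1, at least 2.29-fold lower at 0.3 ng (-3.18 ± 0.39, limma adjusted p = 0.0379). The call held in 4 of 14 alternatives, with adjusted p from 0.00954 to 0.206. It was lost when any 1 of the 3 reference arrays at 10 ng, or the second array at 0.3 ng, was left out, and without the first array at 0.3 ng Cyp27a1 was called as well.

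Other members with moderate or low reference signals also lay below background on some or all arrays at 0.3 ng without passing the test. Cyp2s1 went from 144.9, 305 and 140.9 at 10 ng to 151.8, 95.9 and 108.6 at 3 ng and to 1.9, 25.7 and 36.7 at 0.3 ng (-3.30 ± 0.80, limma adjusted p = 0.147 against 10 ng). Cyp27a1 went from 39.3, 29.3 and 53.6 to 62.5, 25.7 and 46.1 and to 9.8, 3.6 and 6.1 (-2.11 ± 0.35, limma adjusted p = 0.0727). Only 2 of its arrays at 10 ng were above background, and its level at 0.3 ng was at least 1.21-fold lower. Both genes had all 3 arrays at 0.3 ng below all 3 at 10 ng. Single arrays could also stand far above their replicates at 0.3 ng: Cyp26a1 gave 5.9, 990.2 and 71.6, and Cyp1b1 gave 761.7, 2274.5 and 693.1. Both high values were on the second array, whose summed member signal was 14594, against 9267 and 12049 on the other two. Cyp2c55, by contrast, gave 261.7, 250.3 and 226.5 at 3 ng and 179.2, 174.8 and 278.5 at 0.3 ng, and stayed above background on all 9 reference arrays.

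**Figure D3:**
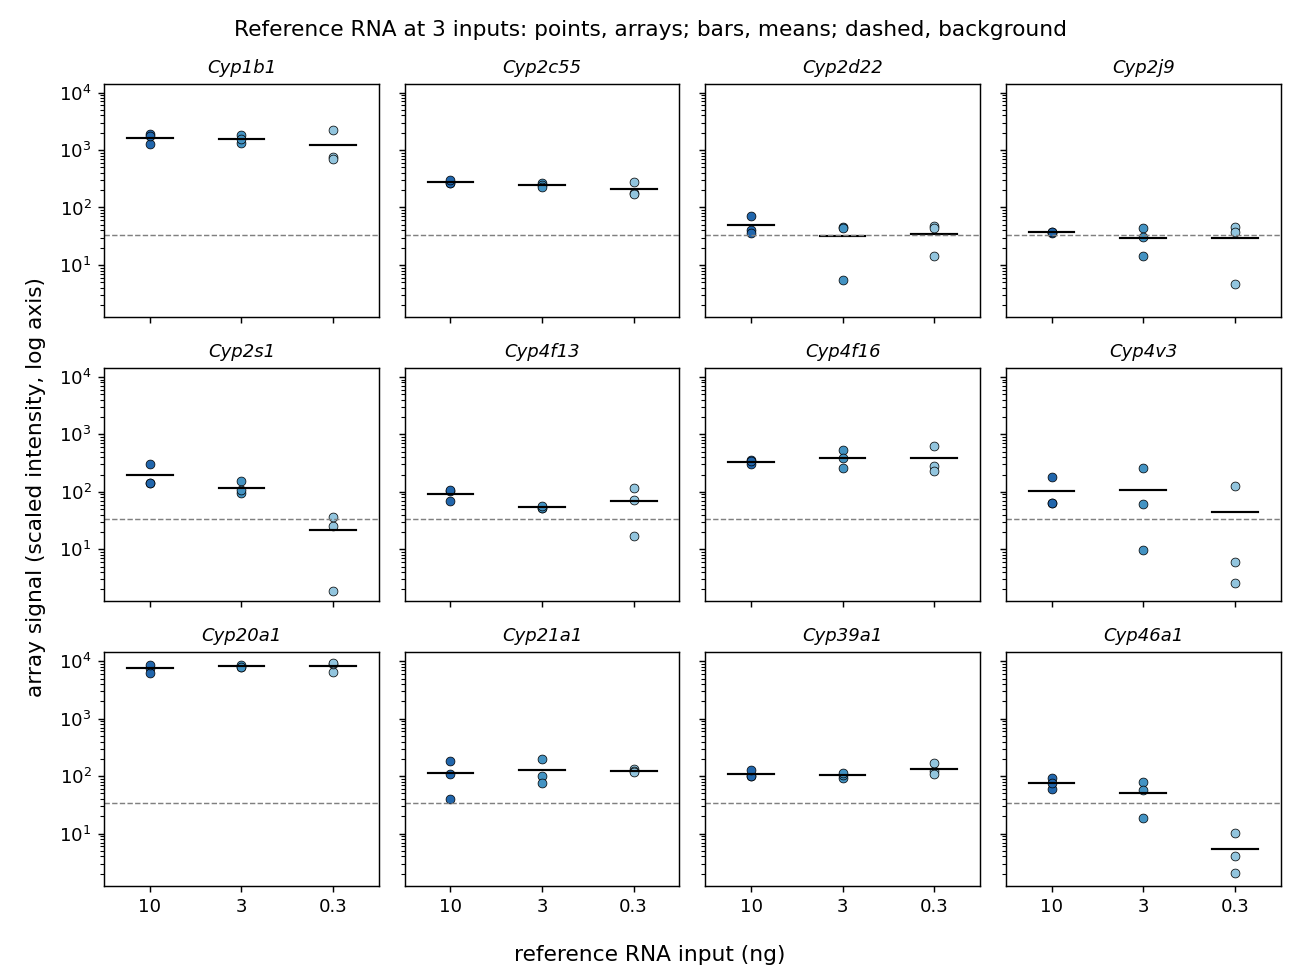
Signals of the 12 tested members above background on all 3 reference arrays at 10 ng, at inputs of 10, 3 and 0.3 ng, on a log axis, with points for arrays and bars for means. Cyp20a1 kept its level across inputs, while at 0.3 ng the means of Cyp46a1, Cyp2s1 and Cyp2j9 (5.47, 21.4 and 28.9) lay below the background of 33.65; that of Cyp2j9 was 36.9 at 10 ng and already 29.6 at 3 ng.

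The 12 tested members that were above background on all 3 reference arrays at 10 ng were Cyp1b1, Cyp2c55, Cyp2d22, Cyp2j9, Cyp2s1, Cyp4f13, Cyp4f16, Cyp4v3, Cyp20a1, Cyp21a1, Cyp39a1 and Cyp46a1. At 3 ng 8 of the 12 (66.7%) were still above it on all 3 arrays and at 0.3 ng 6 (50%), against 96.6% and 86.2% of the 11425 genes chosen in the same way. Their median signal at 10 ng was 111, against 552 for all those genes, so the groups were not matched in signal, and since both were chosen on the 10 ng arrays no test was made. The median difference from 10 ng was -0.28 at 3 ng and -0.57 at 0.3 ng, against -0.06 and -0.23. Spread followed input: the median SD of log2 values over arrays was 0.29, 0.42 and 0.80 for the 12 members at 10, 3 and 0.3 ng. Over the 23797 tested probe sets detected in the same way it was 0.22, 0.28 and 0.65. In kidney the 29 tested members had a median SD of 0.21, against 0.26 over all tested probe sets.

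P450 enzymes depend on electron donors, haem and nuclear receptors, and a list of 32 such genes, together with epoxide hydrolases and P450 genes of other names, was examined beside them. A probe set naming the gene alone was found for 28, and 26 were tested, of which 18 were higher in kidney and 6 lower at 10 ng, where 27.1% of all tested genes were called higher, 35.6% lower and 62.7% in all. The median difference was 1.17, against -0.19 over all tested genes. The same 18 and 6 genes were called with arrays centred on their median and with quantile normalization. Against the reference at 3 ng, 17 were higher in kidney and 7 lower, where 26.4% and 31.4% of all tested genes were. Against 0.3 ng, 11 were higher and 1, Hmox1, was lower, where 20.9% and 16.7% of all tested genes were. No listed gene was called between reference inputs of 3 and 10 ng or of 0.3 and 10 ng.

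Of the regulators, 7 were tested, with 5 higher and 1 lower. Hnf4a, a nuclear receptor of liver and proximal tubule that drives many P450 genes, gave 10737.6, 11031 and 11578.4 in kidney against 33.1, 30.4 and 41 (8.17 ± 0.15, limma adjusted p = 3.81e-06). Nr1h4, the bile acid receptor, had means of 1862 ± 37.5 and 69.2 ± 15.1 (SD, n = 3 each), a difference of 4.70 (limma adjusted p = 2.61e-05). Ppara, the receptor that induces Cyp4a genes, had means of 751 ± 65.7 and 27.9 ± 3.30 and was at least 22.3-fold higher. The oxysterol receptor Nr1h3 was higher by 2.86 (limma adjusted p = 0.000456). Ahr, the receptor of the Cyp1 genes, was the regulator lower in kidney, by a difference of -1.31 (limma adjusted p = 0.00671), and its partner Arnt was not called (-0.29, limma adjusted p = 0.106). Nr1i2 and Nr1i3, the xenobiotic receptors that induce Cyp3a and Cyp2b genes, had kidney means of 35.3 and 6.50 and were not tested.

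Of the 7 haem synthesis genes tested, 5 were higher and 1, Ppox, lower (-0.75, limma adjusted p = 0.0043). Alas1, the first enzyme of that pathway, had means of 585 ± 42.3 and 121 ± 22.4 (2.25, limma adjusted p = 0.000225), and Urod did not pass the test (0.16, limma adjusted p = 0.51). Of the electron transfer genes, 4 of the 5 tested were higher, among them the mitochondrial donor Fdx1 (1.86, limma adjusted p = 0.00163) and cytochrome b5, Cyb5a (1.74, limma adjusted p = 0.000132). Por and Fdxr, also listed for this role, were not analysed here. Cyb5r3, a reductase of cytochrome b5, was lower (-1.14, limma adjusted p = 0.0173). The inducible haem oxygenase Hmox1 was lower too (-1.06, limma adjusted p = 0.0016).

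The epoxide hydrolases, which open the epoxides that P450 enzymes form, went opposite ways. Ephx2, which acts on fatty acid epoxides, gave 4363.8, 4371.5 and 4376 in kidney against 29, 58.5 and 2.3 (7.55 ± 0.83, 6.62 at the background bound, limma adjusted p = 0.000745). Ephx1, which acts on xenobiotic epoxides, was lower by a difference of -1.12 (limma adjusted p = 0.00105). Of the 3 P450 genes of other names, Ptgis, prostacyclin synthase, was lower, at means of 295 ± 27.1 and 1233 ± 204 (-2.04, limma adjusted p = 0.000258), and Tbxas1 and Cyp51 were higher.

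**Figure D4:**
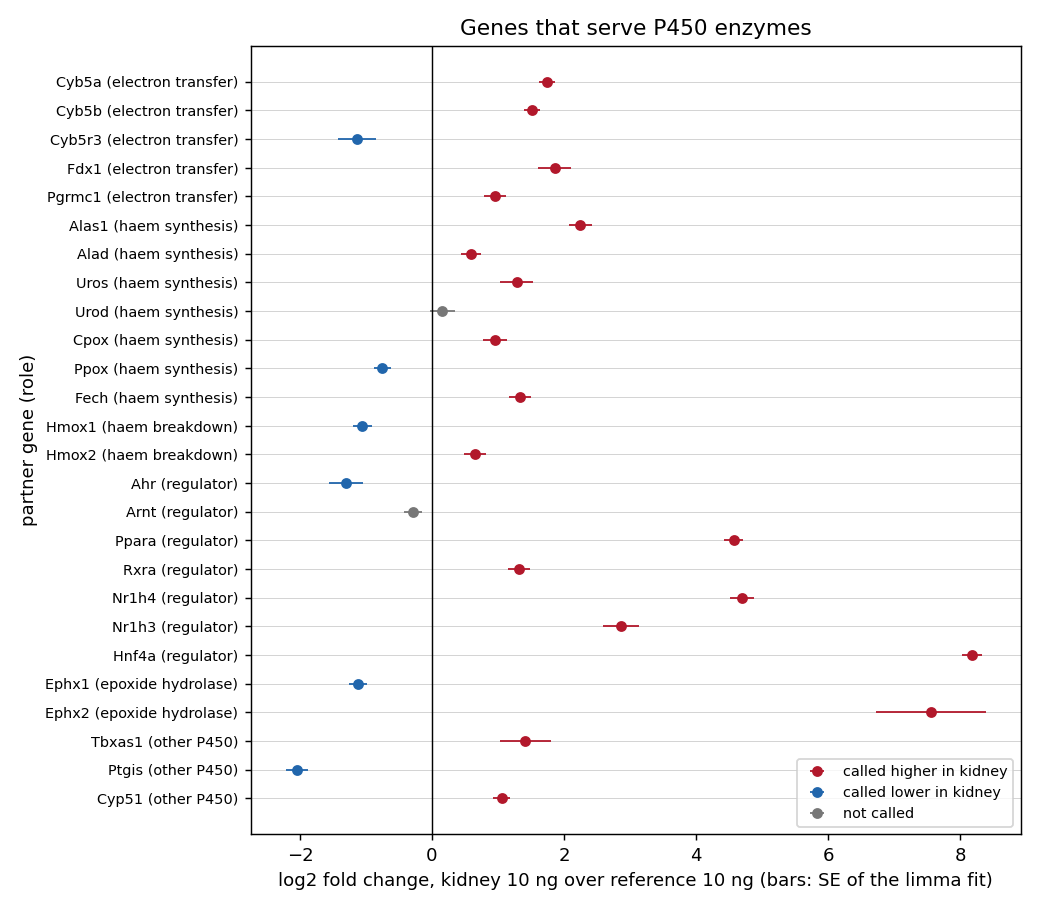
Difference in log2(signal + 3.9) between kidney and reference at 10 ng for the 26 tested genes of P450 partners and regulators, grouped by role, with bars of 1 SE. The fitted values of Hnf4a (8.17) and Ephx2 (7.55) lie farthest to the kidney side, and that of Ptgis (-2.04) farthest to the reference side.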

How the data were processed

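The 12 arrays, in 4 groups of 3, started from total RNA of kidney (10 ng) or of a universal reference (10, 3 and 0.3 ng). The deposited values are linear intensities that the authors scaled, as the values show, to a 2% trimmed mean of 500 per array; probe summarisation, software and amplification: not given in the sources used here. Values were taken as log2(intensity + 3.9), the added number being the 10th percentile of all signals, and 64 control probe sets were left out. A probe set was tested when its highest group mean of these log2 values exceeded the 40th percentile, equal to a signal of 65.4. This left 27022 of 45101. Among probe sets with a gene as their single symbol, that of highest mean log2 value stood for the gene (12820 of 18193 genes tested). Each pair of groups was fitted in limma 3.58.1 (R 4.3.3) with lmFit and eBayes, without covariates, two-sided, and the fit was tested on simulated data. The number of arrays limits the precision.

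Named were, per family, the up to 4 called members of largest difference in each direction at 10 ng, or the brightest member where none was called, up to 8 called members in the other comparisons, and up to 6 called partner genes each way with up to 3 others. Other genes complete a subfamily, a role or a count, or were chosen after their values were seen. The P450 genes, the partner list and the marker lists were chosen with earlier results of these data known. Gene names come from an annotation of the platform that can be old. Promoters came from RefSeq, build GRCm38.p6; Por, Fdxr, Serpina1a, Akr1b7, Cfd and Plin1 were not analysed here. Alternatives were other added numbers (1 and 32), scalings, filters, fits, probe set rules, the replicate number as a block, and leaving out each array.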

Additional observations from a re-analysis of the deposited data

Results flagged for a closer look

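Cyp46a1 differed between reference inputs: its kidney difference was -0.96 against the reference at 10 ng and 2.23 against that at 0.3 ng. The tested change was that of the reference itself, -3.18 at 0.3 against 10 ng (limma adjusted p = 0.0379). Most alternatives lost that call, as described above.

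Some probe sets name more than 1 P450 gene and were left out of the comparisons, yet carried kidney signal far above the control probe sets. The probe set naming Cyp2a5 and Cyp2a4, drug- and steroid-oxidising enzymes of liver, gave 3418.5, 3343.3 and 3607.7 in kidney, a mean of 3457 ± 136 (SD, n = 3), against 29.1, 5.7 and 39.2 in the reference at 10 ng (7.18 higher, limma adjusted p = 0.000221). The only Cyp2a gene with a probe set of its own, Cyp2a12, had a kidney mean of 13.4. The probe set naming Cyp4a31 and Cyp4a10 gave 9064.9, 9463.6 and 9630.7 in kidney, a mean of 9386 ± 291, against 4.8, 27 and 0.9, at least 279-fold higher (limma adjusted p = 0.000136). The files do not say which of the paired genes gave the signal.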

How the results depend on the processing

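Of the 19 members higher in kidney at 10 ng, 17 were called in every alternative run for them, the exceptions being Cyp4v3 and Cyp26b1, and the count ran from 15 to 20. The 5 lower calls were less stable: 2 with arrays centred on their median, 3 with quantile normalization, 3 with the filter on the mean of all arrays, 1 with all arrays in 1 fit, 3 with a trended robust fit, and 2 with the mean over a gene's probe sets. Leaving out each array gave 17 to 20 higher and 2 to 4 lower calls, with 3 lower without kidney array 1 or reference array 2 and 2 without kidney array 3 or reference array 1 or 3. The single call between reference 0.3 and 10 ng became 0 with 1 added to signals, with centred arrays, with quantile normalization, without a filter, with the filter on the mean, with the trended robust fit and with the mean over probe sets, and 3 with all arrays in 1 fit (Cyp2s1, Cyp27a1 and Cyp46a1). Leaving out each array gave 0 to 2, with 2 without the first array at 0.3 ng and 0 without the second or any array at 10 ng. The difference of Cyp20a1 turned to 0.0454 with centred arrays and that of Cyp4f16 to 0.12 with the mean over probe sets. The total of calls stayed within 1.5 times in the other 3 comparisons, but not the split: of the 3 lower calls against 3 ng, 1 was left with all arrays in 1 fit and 6 were made without a filter, and the 1 lower call against 0.3 ng became 2 with all arrays in 1 fit and without the first array at 0.3 ng. The cause of these changes was not tested. Values under the background of 33.65, frequent in the reference, limit the folds of those genes to a bound.

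The replicate numbers did not pair the arrays: same-numbered arrays correlated at -0.06 to 0.02 in their deviations from group means. With the replicate number as a block, 19 members were higher and 4 lower at 10 ng, and 0 were called between reference 0.3 and 10 ng.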
